A study of Mus musculus with 2 samples.

Results

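The genes described are the TEAD transcription factors Tead1, Tead2, Tead3 and Tead4, their coactivators Yap1 and Wwtr1 (TAZ), and the target genes Ctgf, Cyr61, Ankrd1 and Amotl2. These 10 genes were taken by symbol from a table of 14339 named genes, and all 10 were present, each with a mean FPKM of at least 1. They were chosen with the low value of Tead2 in view, so the values of this comparison describe them and test nothing. The cells were primary hepatocytes, taken from mouse liver and kept in culture. The ClpP siRNA library came from cells in which the protease subunit of mitochondrial ClpXP was targeted. The GFP siRNA library came from cells given an siRNA against a jellyfish protein that mouse cells lack. Both siRNAs were delivered with Lipofectamine, so both libraries come from lipid-transfected cells. Each group held 1 library, so no p-value and no error on a single value can be given. The strain, sex and age of the animals, the siRNA dose, the harvest time and whether animals were pooled are not given in the sources used here.

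The Hippo pathway is a kinase cascade that reads cell contact, polarity and tension. Its kinases phosphorylate YAP and TAZ, which keeps them out of the nucleus; unphosphorylated YAP and TAZ enter it, bind a TEAD factor on DNA and switch on genes such as Ctgf, Cyr61, Ankrd1 and Amotl2. In liver the pathway limits organ size, and hepatocytes placed on stiff culture plastic are known to turn YAP target genes on.

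TEAD factors bind the sequence GGAATG, or CATTCC when it is read on the opposite strand. The RefSeq promoter windows of build GRCm38.p6 hold 250 bases before and 50 after an annotated transcript start, and they matched 7 of the 10 genes by NCBI gene ID. Tead1, Tead4 and Ctgf were not matched. Both spellings of the motif were searched. The 7 genes have 10 windows, some overlapping, and 8 of the 10 held at least 1 copy; the share was 14.7% over all 32851 windows and 12.2% over the windows of genes with a mean FPKM of at least 1. Both Wwtr1 windows hold the same copy, so it is counted more than once among the 8. By gene, 6 of the 7 had a copy in a window, and Tead2 had none. No share by gene over all genes is given, and a gene with more windows has more places for a match. A match is only a run of letters. The 3 matched target genes share the motif, while their transcripts were higher (Ankrd1), lower (Cyr61) or near level (Amotl2). Their windows are therefore shown, with that of Tead2 beside them. They lie at chr19:36119795-36120094 on the minus strand for Ankrd1, chr3:145649936-145650235 on the minus strand for Cyr61, chr9:102717554-102717853 on the plus strand for Amotl2 and chr7:45215542-45215841 on the plus strand for Tead2. Capitals mark the motif, which starts at -210 and -123 in Ankrd1, -103 in Cyr61 and -65 in Amotl2, counted from 0 at the annotated start.
Ankrd1: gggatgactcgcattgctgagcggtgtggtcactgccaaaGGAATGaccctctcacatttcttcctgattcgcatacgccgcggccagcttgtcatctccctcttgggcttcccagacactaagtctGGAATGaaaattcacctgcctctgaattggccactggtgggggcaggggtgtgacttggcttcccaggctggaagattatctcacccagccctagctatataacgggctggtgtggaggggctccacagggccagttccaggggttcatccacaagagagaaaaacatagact
Cyr61: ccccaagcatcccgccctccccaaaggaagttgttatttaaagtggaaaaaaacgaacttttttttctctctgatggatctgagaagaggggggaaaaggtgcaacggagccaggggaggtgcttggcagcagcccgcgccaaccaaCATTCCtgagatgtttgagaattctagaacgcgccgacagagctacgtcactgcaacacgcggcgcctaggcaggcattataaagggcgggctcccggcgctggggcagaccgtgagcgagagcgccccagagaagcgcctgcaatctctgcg
Amotl2: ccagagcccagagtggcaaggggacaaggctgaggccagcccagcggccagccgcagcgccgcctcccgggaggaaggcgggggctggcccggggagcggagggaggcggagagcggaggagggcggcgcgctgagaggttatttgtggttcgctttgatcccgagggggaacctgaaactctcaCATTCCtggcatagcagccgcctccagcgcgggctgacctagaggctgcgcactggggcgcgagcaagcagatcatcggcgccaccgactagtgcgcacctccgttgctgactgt
Tead2: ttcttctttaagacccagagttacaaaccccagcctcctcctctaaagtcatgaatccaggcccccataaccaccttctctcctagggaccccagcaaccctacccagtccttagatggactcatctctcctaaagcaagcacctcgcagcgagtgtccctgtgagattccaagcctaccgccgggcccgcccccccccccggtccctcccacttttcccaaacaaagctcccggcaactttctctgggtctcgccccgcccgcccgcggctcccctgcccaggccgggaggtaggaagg

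Values are FPKM, a fragment count corrected for transcript length and for the number of fragments mapped, which allows levels to be compared between genes. The log2 ratio is log2(FPKM + 1) with ClpP siRNA minus log2(FPKM + 1) with GFP siRNA, and it understates differences of low genes. A gene is called past 2-fold where this ratio is at least 1 in size, which is a limit on size and no test. To describe the scatter, each gene was set beside the 500 genes nearest to it in mean FPKM, whose 16th and 84th percentiles are called the local spread; that spread mixes technical scatter with real differences. Clpp itself had 9.32 FPKM with ClpP siRNA and 45.1 FPKM with GFP siRNA, a log2 ratio of -2.16, so the targeted transcript was lower in the library labelled for it.

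Of the 10 genes, 1 was at least 2-fold lower and 1 at least 2-fold higher, while 7.22% of the 11087 genes with a mean FPKM of at least 1 were past 2-fold in either direction, 5.19% higher and 2.04% lower. The members were picked on this contrast, so nothing is read from that difference. The gene that was lower is Tead2 and the gene that was higher is Ankrd1. The other 8 lay within 2-fold. The median log2 ratio of the 10 was -0.20, and that of all 11087 genes was -0.01.

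**Figure D1:**
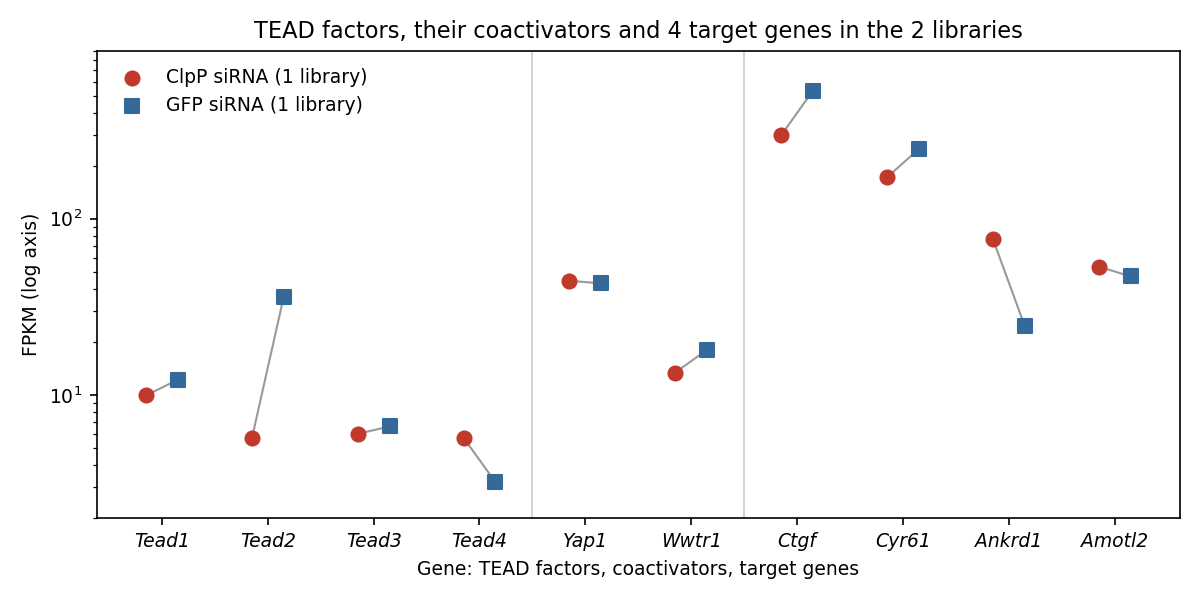
FPKM on a log axis of each TEAD factor, coactivator and target gene in the ClpP siRNA library (circles) and the GFP siRNA library (squares), 1 library each, with a line joining the values of a gene. The steepest lines are those of Tead2, at 5.66 FPKM with ClpP siRNA and 35.9 with GFP siRNA, and of Ankrd1, at 76.7 FPKM with ClpP siRNA and 24.6 with GFP siRNA.

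Tead2 (NCBI gene 21677), a TEAD factor best known from the early mouse embryo, had 5.66 FPKM with ClpP siRNA and 35.9 FPKM with GFP siRNA. It was 6.34-fold lower on the FPKM scale, with a log2 ratio of -2.47. The local spread was -0.36 to 0.41, and none of the 500 genes of like level had a ratio as low; over all genes tested, 12 had a lower one. The authors' deposited table, computed after quantile normalization, gives a fold change of -5.79. Per the deposited table the value covers 3 RefSeq transcripts, so which isoform differed cannot be read from it.

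The paralogs of Tead2 differed far less. Tead1 (NCBI gene 21676), the TEAD factor most studied in heart and skeletal muscle, had 9.92 FPKM with ClpP siRNA and 12.2 FPKM with GFP siRNA, a log2 ratio of -0.27 inside its local spread of -0.31 to 0.34. Tead3 (NCBI gene 21678), known from the placenta, had 5.99 FPKM with ClpP siRNA and 6.61 FPKM with GFP siRNA, a ratio of -0.12 also inside its spread. Tead4 (NCBI gene 21679), which the mouse embryo needs to form its outer cell layer, went the other way. It had 5.69 FPKM with ClpP siRNA and 3.20 FPKM with GFP siRNA, a ratio of 0.67, above its local spread of -0.37 to 0.45 but short of 2-fold. In these libraries, then, 1 of the 4 TEAD transcripts was past 2-fold, and the other 3 were split in direction.

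The order of the TEAD transcripts differed between the libraries. With ClpP siRNA, Tead1 led at 9.92 FPKM, and Tead3, Tead4 and Tead2 followed within 0.335 FPKM of each other, a gap too narrow to rank without replicates. With GFP siRNA, Tead2 led, at 2.95 times the FPKM of Tead1, and Tead3 and Tead4 were the lowest. Tead2 made up 20.8% of the summed FPKM of the 4 factors with ClpP siRNA and 62.0% with GFP siRNA. The share of Tead1 was 36.4% with ClpP siRNA and 21.0% with GFP siRNA. Tead3 made up 21.99% with ClpP siRNA and 11.4% with GFP siRNA, and Tead4 20.9% with ClpP siRNA and 5.52% with GFP siRNA.

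The 4 factors together summed to 27.3 FPKM with ClpP siRNA and 57.9 FPKM with GFP siRNA. Without Tead2 the sums were 21.6 FPKM with ClpP siRNA and 21.98 FPKM with GFP siRNA. The difference in the sum of all 4 was -30.6 FPKM, and that in Tead2 alone was -30.2 FPKM. These are transcript levels and not protein.

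**Figure D2:**
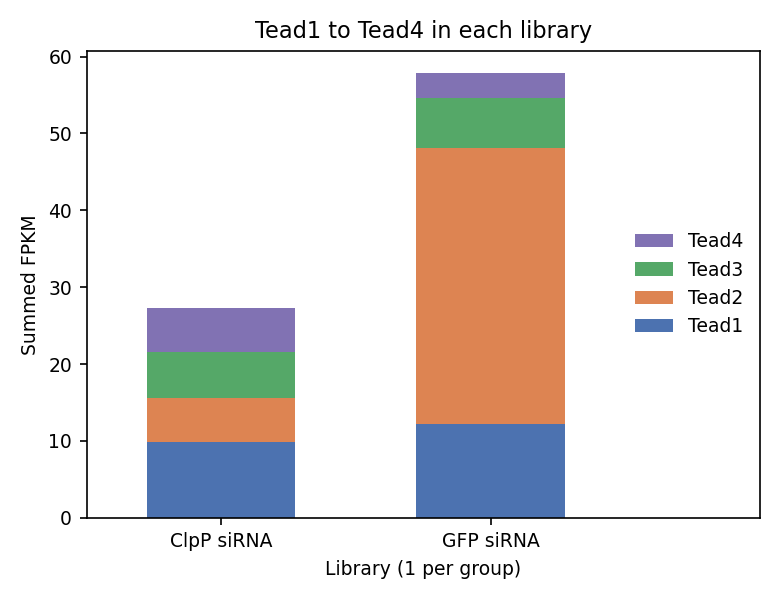
Summed FPKM of Tead1, Tead2, Tead3 and Tead4, stacked from Tead1 at the bottom, in the ClpP siRNA library (left) and the GFP siRNA library (right), 1 library each. The Tead2 block is 5.66 FPKM high with ClpP siRNA and 35.9 with GFP siRNA, while the other 3 blocks sum to 21.6 FPKM with ClpP siRNA and 21.98 FPKM with GFP siRNA.

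The TEAD genes share little sequence over runs of 50 bases. Among the 50-base stretches of the GENCODE vM21 transcripts, 1 of 5041 stretches of Tead2 occurred in another gene (Glb1l2), and none occurred in another TEAD gene. Tead3 and Tead4 shared 10 stretches, of 6921 and 3681. The read length is not given in the sources used here. Downstream of Tead2 lies Cd37, a leukocyte surface protein, which had 0.0500 FPKM with ClpP siRNA and 0.293 FPKM with GFP siRNA and so was close to 0 in both.

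Both coactivators lay within 2-fold. Yap1 (NCBI gene 22601) had 44.4 FPKM with ClpP siRNA and 42.9 FPKM with GFP siRNA. Its log2 ratio of 0.05 lay inside the local spread and was -0.04 after quantile normalization, so no direction is given for it. Wwtr1 (NCBI gene 97064), which encodes TAZ, had 13.4 FPKM with ClpP siRNA and 18.04 FPKM with GFP siRNA, a ratio of -0.41 that was just below its local spread of -0.34 to 0.33. Yap1 was the more abundant coactivator transcript, with 3.32 times the FPKM of Wwtr1 with ClpP siRNA and 2.38 times with GFP siRNA. The coactivators summed to 57.8 FPKM with ClpP siRNA and 60.9 FPKM with GFP siRNA. Per unit of coactivator transcript, the summed TEAD level was 0.471 with ClpP siRNA and 0.950 with GFP siRNA. RNA levels do not show how much YAP or TAZ was in the nucleus, since the pathway acts on the proteins by phosphorylation.

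The 4 target genes went in different directions. Ctgf (NCBI gene 14219), a secreted matrix-associated protein linked to fibrosis, was the most abundant of the 10 genes in both libraries. It had 298 FPKM with ClpP siRNA and 534 FPKM with GFP siRNA, a log2 ratio of -0.84 against a local spread of -0.43 to 0.56; 19 of the 500 genes of like level were as low or lower. Cyr61 (NCBI gene 16007), its close relative in the CCN family, came next in both libraries, with 172 FPKM with ClpP siRNA and 249 FPKM with GFP siRNA. Its ratio of -0.53 was below a local spread of -0.36 to 0.53. Both CCN genes were lower and neither was past 2-fold.

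Ankrd1 (NCBI gene 107765), a nuclear ankyrin repeat protein first known from heart muscle, was higher. It had 76.7 FPKM with ClpP siRNA and 24.6 FPKM with GFP siRNA, 3.11 times the control level, with a ratio of 1.60 against a local spread of -0.30 to 0.41. Of the 500 genes of like level, 21 had a ratio as high or higher. Amotl2 (NCBI gene 56332), an angiomotin-like protein that binds YAP and holds it outside the nucleus, had 53.5 FPKM with ClpP siRNA and 47.0 FPKM with GFP siRNA, a ratio of 0.18 inside its spread. The 4 classic targets thus had no common direction: 2 were lower within 2-fold, 1 was near level and 1 was past 2-fold higher.

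The balance among the targets differed too. Ctgf exceeded Ankrd1 by 3.88 times on the FPKM scale with ClpP siRNA and by 21.7 times with GFP siRNA. The 4 targets summed to 600 FPKM with ClpP siRNA and 855 FPKM with GFP siRNA, and Ctgf and Cyr61 held 78.3% of that sum with ClpP siRNA and 91.6% with GFP siRNA. Of the 50-base stretches of Ctgf, 17.2% also occur in Gm15270, in a search that took either strand. Gm15270 was not among the genes analysed here. The counting is not stated to use strand, so reads from these shared stretches cannot be told apart between Ctgf and Gm15270. No stretch of Cyr61 or Ankrd1 was shared.

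**Figure D3:**
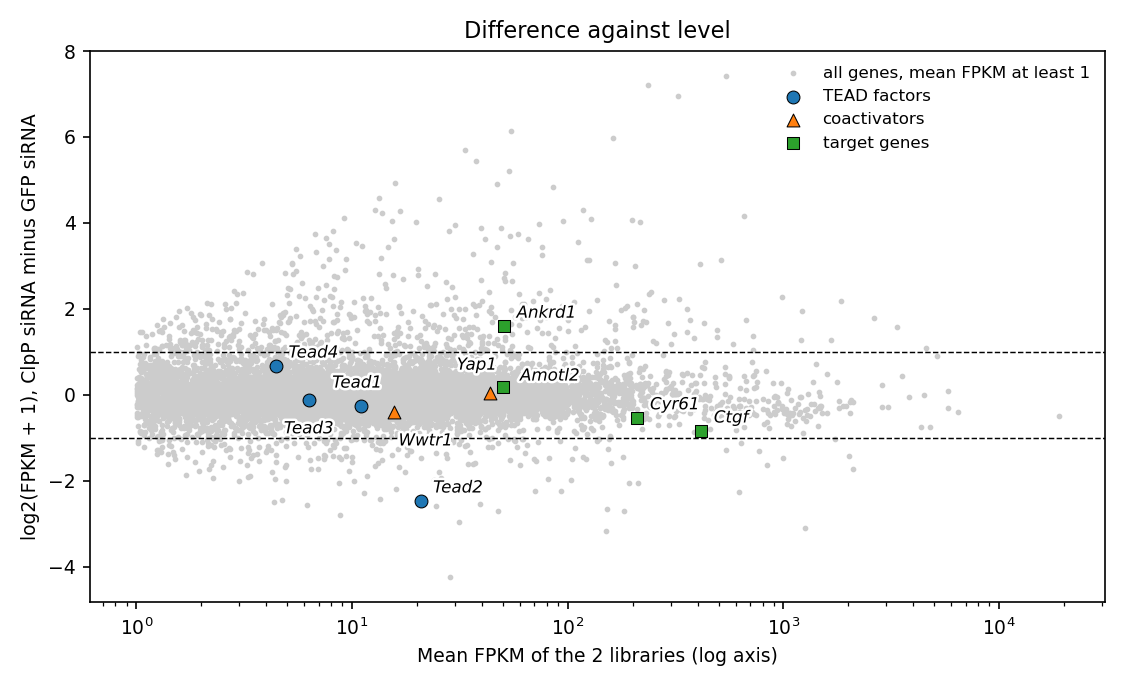
Difference in log2(FPKM + 1), ClpP siRNA minus GFP siRNA, against mean FPKM on a log axis for 11087 genes (grey), with TEAD factors as circles, coactivators as triangles and target genes as squares; dashed lines mark 2-fold. Tead2 at -2.47 and Ankrd1 at 1.60 lie outside the dashed lines, and the other 8 genes lie between them.

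Further YAP and TAZ target genes were split in direction as well. Of a list of 18 such genes, which leaves out the 4 targets above, 17 were in the table and 14 had a mean FPKM of at least 1. Of these 14, 3 were past 2-fold lower and 0 higher, where 2.04% of all genes were lower and 5.19% higher. This list was chosen with earlier results of these data known, so nothing is read from that difference. Of the 14, 7 lay below 0 and 7 above, and the median log2 ratio was -0.10, against -0.01 for all genes. Fjx1, a secreted relative of the Drosophila kinase Four-jointed, was lowest at 3.48 FPKM with ClpP siRNA and 17.0 FPKM with GFP siRNA, a ratio of -2.01. Nt5e, the cell surface enzyme CD73, had 1.41 FPKM with ClpP siRNA and 4.67 FPKM with GFP siRNA, a ratio of -1.23. Tgfb2, a TGF-beta ligand, had 4.64 FPKM with ClpP siRNA and 11.7 FPKM with GFP siRNA, a ratio of -1.17. With a pseudocount of 5 in place of 1, the count of 3 was 1. F3, tissue factor, came next at -0.69, and Ptpn14, a phosphatase that restrains YAP, was the highest at 0.69.

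A second list held 20 genes used as readouts of YAP or TEAD activity in liver or epithelia, and 19 of them passed the same filter. Here 5 were past 2-fold higher and 1 lower, beside 5.19% and 2.04% of all genes, with a median ratio of 0.03. The list was chosen with earlier results of these data known, so nothing is read from that difference. The EGF receptor ligand Areg had 8.98 FPKM with ClpP siRNA and 0.981 FPKM with GFP siRNA, a ratio of 2.33. Krt19, a keratin of bile duct cells, had 50.2 FPKM with ClpP siRNA and 9.58 FPKM with GFP siRNA, a ratio of 2.28. Lgals3, the lectin galectin-3, had 342 FPKM with ClpP siRNA and 78.7 FPKM with GFP siRNA, a ratio of 2.11.

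Birc5 and Edn1 of that list were past 2-fold as well. Birc5, the survival and mitosis protein survivin, had 13.7 FPKM with ClpP siRNA and 2.53 FPKM with GFP siRNA, a ratio of 2.06. Edn1, the vasoconstrictor endothelin-1, was lower at 4.57 FPKM with ClpP siRNA and 11.9 FPKM with GFP siRNA, a ratio of -1.21. Also low, but inside the 2-fold limit, were the growth regulator Myc at -0.997 and the Notch ligand Jag1 at -0.96. The Notch effector Hes1 was at -0.91. Spp1, the most abundant gene of the list, had 870 FPKM with ClpP siRNA and 1605 FPKM with GFP siRNA, a ratio of -0.88. On the FPKM scale, without the pseudocount, Myc was 2.03-fold and Jag1 2.09-fold lower. Cdc42ep3, at 0.593 FPKM with ClpP siRNA and 1.58 FPKM with GFP siRNA, was 2.67-fold lower on that scale. Over the alternative settings the number of the list counted as lower lay between 0 and 4. These genes answer to many other regulators, and the list does not isolate TEAD.

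The Hippo kinases, their activators and their adaptors lie upstream of YAP. Of 18 such genes, 17 passed the filter and 0 were past 2-fold; with 7.22% of all genes past 2-fold, so small a list would hold few in any case. The list had a median ratio of -0.10 and a range of -0.82 to 0.69. Its highest value is that of Ptpn14, which, like Lats2, also stands in the list of further YAP and TAZ target genes. Map4k4, a kinase that can activate LATS, had 23.6 FPKM with ClpP siRNA and 42.5 FPKM with GFP siRNA, a ratio of -0.82. Mob1b, a cofactor of the LATS kinases, had -0.63, and Taok3, a kinase upstream of the cascade, had 0.51. The core kinases lay nearer to 0: Stk3 and Stk4, the mammalian Hippo kinases, had -0.22 and 0.08, and Lats1 and Lats2, which phosphorylate YAP, had -0.10 and 0.24. The core kinases were chosen after their values were seen.

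Co-regulators that bind YAP or TEAD made up a list of 16 genes. Of these, 13 passed the filter and 0 were past 2-fold, a count near the 7.22% of all genes for a list of this size, with a median ratio of -0.06. Csnk1e, a casein kinase that marks YAP for destruction, had 11.1 FPKM with ClpP siRNA and 19.6 FPKM with GFP siRNA, a ratio of -0.76. Ywhaq, a 14-3-3 protein of the kind that holds YAP in the cytoplasm, had -0.52, and Vgll4, which competes with YAP for TEAD, had 0.21. Of 19 polarity and junction proteins, 17 passed and 1 was past 2-fold, again near the share of 7.22% over all genes. This was Fat1, an atypical cadherin, which had 6.54 FPKM with ClpP siRNA and 14.3 FPKM with GFP siRNA, a ratio of -1.02 that fell short of 2-fold with a pseudocount of 5. Cdh1, E-cadherin, had the highest ratio of that list at 0.74, with 86.0 FPKM with ClpP siRNA and 51.2 FPKM with GFP siRNA.

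**Figure D4:**
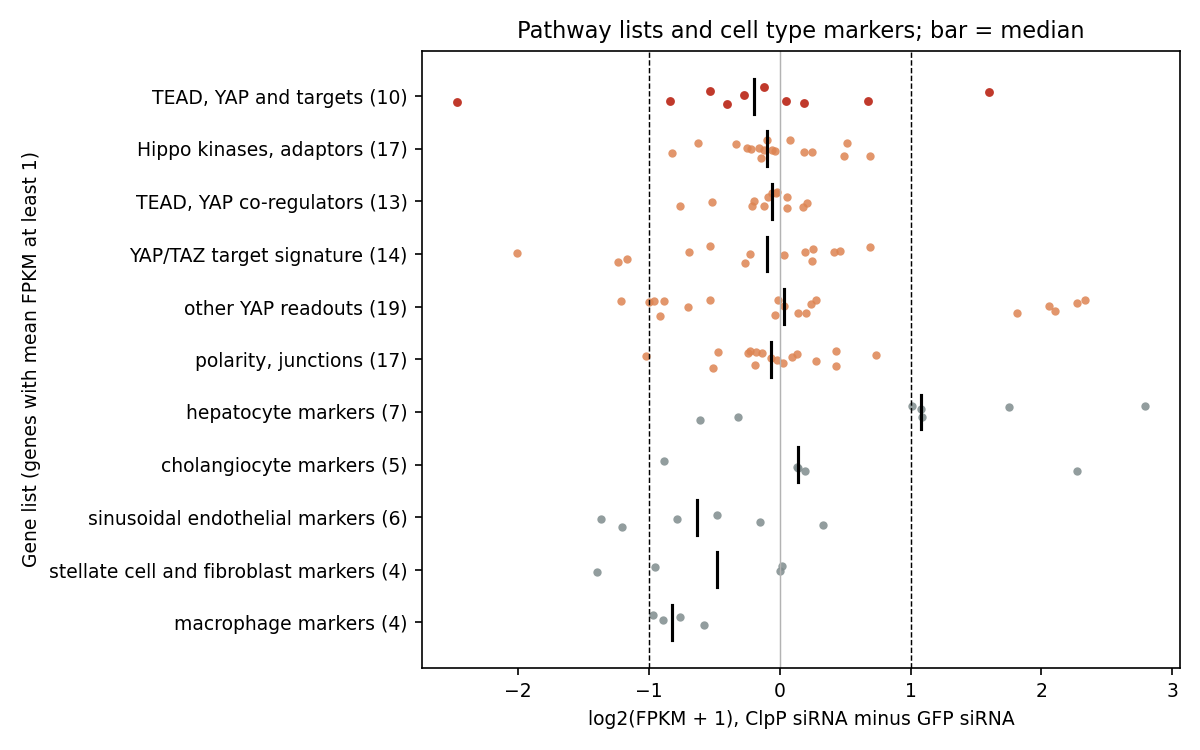
Difference in log2(FPKM + 1), ClpP siRNA minus GFP siRNA, for each gene (points) of the 10 genes described, 5 pathway lists and 5 cell type marker lists, with the number of genes in brackets and the median as a bar; dashed lines mark 2-fold. The Hippo kinases and co-regulators lie between the dashed lines, as do the macrophage markers, while each of the other lists has at least 1 gene beyond them.

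The genes nearest to Tead2 in level in both libraries were sought by the Euclidean distance between pairs of log2(FPKM + 1) values, over 2 libraries. The 5 nearest were Ftcd, an enzyme of histidine breakdown, at a distance of 0.27, Ctxn1, a small membrane protein of neurons, at 0.42, Pipox, a peroxisomal oxidase, at 0.48, Cyp2a5, a cytochrome P450, at 0.57, and Crp, C-reactive protein, at 0.60. Ftcd had 6.25 FPKM with ClpP siRNA and 42.6 FPKM with GFP siRNA. With 2 values per gene such likeness says only that the levels were alike.

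Most markers of endothelial, stellate and macrophage cells were lower with ClpP siRNA, and most cholangiocyte markers were not. All 8 sinusoidal endothelial markers were in the table and 7 of them were lower. The 8 summed to 16.3 FPKM with ClpP siRNA and 29.4 FPKM with GFP siRNA. Pecam1 and Cdh5 had the lowest ratios of the 8, -1.36 and -1.20. Oit3 was higher at 0.33, and Stab1 was near level at -0.15. Stab2 and Kdr, both among the lower, had a mean FPKM below 1. All 8 stellate cell and fibroblast markers were in the table and 7 were lower, with sums of 15.97 FPKM with ClpP siRNA and 35.2 FPKM with GFP siRNA. Most of that sum was Acta2, smooth muscle actin, at 9.47 FPKM with ClpP siRNA and 26.5 FPKM with GFP siRNA; Lrat, Pdgfrb and Reln were below 1 FPKM in both libraries, and Col1a1 and Dcn had ratios of 0.01 and 0.00. Of 8 macrophage markers 7 were in the table and all 7 were lower, with sums of 5.29 FPKM with ClpP siRNA and 13.5 FPKM with GFP siRNA. Only 4 of the 7 had a mean FPKM of at least 1, and none exceeded 3.98 FPKM in either library. Clec4f, Csf1r and Marco were below 1 FPKM in both libraries. The part of these cells in the values of Tead2, Ctgf, Cyr61, Fjx1, Nt5e, Tgfb2 and Edn1 was not tested. In a bulk library, fewer cells of a type and less RNA per cell cannot be told apart.

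All 7 hepatocyte markers had a mean FPKM of at least 1, but their levels were uneven. Cps1 had 27.8 FPKM with ClpP siRNA and 3.15 FPKM with GFP siRNA. Asgr1 had 4.19 FPKM with ClpP siRNA and 6.91 FPKM with GFP siRNA. The 7 hepatocyte markers summed to 7133 FPKM with ClpP siRNA and 3308 FPKM with GFP siRNA, most of it albumin. Of the 7, 5 were past 2-fold higher with ClpP siRNA, as were 5.19% of all genes. The other 2 were lower within 2-fold, Asgr1 at -0.61 and Apob at -0.32. Markers were also chosen with earlier results of these data known, so nothing is read from the difference from all genes. The 6 cholangiocyte markers in the table summed to 954 FPKM with ClpP siRNA and 1645 FPKM with GFP siRNA, nearly all of it Spp1, while Epcam was below 1 FPKM in both. Krt19, Sox9 and Spp1 stand in this list and in that of the YAP readouts. None of the 6 lymphocyte markers was among the genes analysed here.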

How the data were processed

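Poly-A RNA of mouse primary hepatocytes was sequenced, with 1 library after ClpP siRNA and 1 after GFP siRNA. Per the file headers, the deposited table holds FPKM computed by the authors. It also holds log2 values deposited by the authors, which a quantile normalization of log2(FPKM + 1) recovered to within 0.01 for all 14346 rows, and a deposited signed fold change, used as a score. The submitters' processing notes name the aligners STAR 2.4.0f1, TopHat2 2.0.13 and Bowtie2 2.2.3, beside Cufflinks 2.2.1, Trimmomatic 0.32 and FastQC 0.10.0, without their role or order; the genome build is not given in the sources used here. The ClpP siRNA column is headed by an abbreviation and was matched by that name only.

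Rows without a gene name (7, holding 0.0335% of the FPKM total with ClpP siRNA and 0.0475% with GFP siRNA) were left out. No row was at 0 in either library, so a gene at 0 was not analysed here. FPKM totals were 535315 with ClpP siRNA and 532555 with GFP siRNA; FPKM carries no read count, so depth is unknown and no counting interval is given. Ratios used a pseudocount of 1 and genes with a mean FPKM of at least 1, computed in Python 3.11.15 with pandas 2.3.3 and NumPy 2.4.6. The procedure was run on simulated data with large differences, little scatter and no read counts. That run checks the arithmetic and not how reliable a call is in these libraries. Alternatives were 3 other pseudocounts, 4 scalings and 2 filters. The genes, lists and cell type markers were chosen with earlier results of these data known. Named genes were the members, list genes past 2-fold or with the largest ratios, Clpp and the 5 genes most like Tead2; others are named for their role, after their values were seen. Some list genes that this rule selects are counted but not reported here by name.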

Additional observations from a re-analysis of the deposited data

How the results depend on the processing

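Of 276 recomputed values under 9 alternative settings, 264 stayed on their side of 2-fold, or within 1.5 times for a count and 5 percentage points for a share, 12 counts moved and 0 values reversed. Tead2 lay between -2.64 and -1.94 and Ankrd1 between 1.46 and 1.63, and the other members stayed within 2-fold; only Yap1 changed sign, between -0.04 and 0.06. Tead4 has no value, and the Tead2 share none, at a mean FPKM of at least 5. The share does not use the pseudocount, and a scaling that multiplies a whole library by a factor cannot change it. A filter changes no ratio of a gene that passes it. Part of the 264 was thus fixed in advance and says nothing about stability. Over all genes, 357 were past 2-fold lower with a pseudocount of 0.1, 89 with 5, and 142 at a mean FPKM of at least 5, and 327 were higher with a pseudocount of 5. Among the liver and epithelial readouts the number lower was 4 with a pseudocount of 0.1, 3 with 0.5, 0 with 5, 3 after scaling to TPM, 3 after scaling to the 75th percentile and 2 after quantile normalization. With a pseudocount of 5, the target list had 1 gene lower and the polarity list 0. A higher pseudocount shrinks ratios of low genes by construction. No paired analysis was possible because each group held 1 library. Without replicates or counts, no error can be put on a single value.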
